A study of Homo sapiens with 6 samples.

Results

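The transcriptome of K562 cells carrying the inducible p30 isoform of C/EBPα (P30) was compared with that of K562 cells carrying the empty vector (CTR). The comparison covered 12285 of the 14956 rows in the table of these groups, each row taken as 1 gene. These were the genes with over 1 FPKM in at least 1 group and 0 in neither, without symbols of small RNAs. FPKM stands for fragments per kilobase of transcript, scaled to the number of mapped fragments, a level corrected for gene length and library size. Of the other rows, 2561 were at or under 1 FPKM in both groups, 18 over it were listed at 0 in a group, and 92 were set apart by the start of their symbol (MIR, SNOR, snoU13, U6 or RNU), small RNAs and 9 host genes of microRNAs.

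K562 is a human leukemia cell line, long established, that resembles early red cells. Each group had 2 samples, and an additional group, CEBPA, carried inducible wild type C/EBPα. The cassettes had been brought in with a PiggyBac transposon under a doxycycline-inducible promoter, and all cells, CTR included, received 200 ng/ml doxycycline for 48 h before RNA sequencing. Whether each line was 1 clone is not given in the sources used here. No sample without doxycycline was among those analysed, so p30 and differences between separately made lines cannot be told apart. The CEBPA gene itself was not analysed here.

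C/EBPα is a leucine zipper transcription factor that drives myeloid progenitors towards granulocytes. Its p30 isoform arises when translation begins at an internal start codon. The protein is then missing activation sequences at its amino terminus but can still bind DNA, and it is the form made in acute myeloid leukemias with amino-terminal mutations of the gene. K562 cells make fetal and embryonic hemoglobin, and little of the granule and adhesion proteins of phagocytes.

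For every gene the authors deposited a single FPKM in each group, which pools the replicates. No error or test could therefore be computed here for any value below, and the number of reads behind each gene is unknown. The replicate check and the tests that the study made on the separate samples are not used here. The change of a gene is log2(P30 FPKM + 1) minus log2(CTR FPKM + 1), which shrinks the differences of low genes, and "2-fold" refers to a change of at least 1 on it.

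Erythroid markers of K562 were present in both groups. Levels of GATA1, TFRC and TAL1 were close in CTR and P30, while HBG1 and other erythroid genes given further on were lower in P30. Where 2 values follow a gene they are those of CTR and P30, and where 3 follow they are those of CTR, P30 and CEBPA. GATA1, the main erythroid transcription factor, had 185 and 193 FPKM in CTR and P30. TFRC, the transferrin receptor, had 133 and 145 FPKM. TAL1, a partner of GATA1, had 71.7 and 60.4 FPKM, and the fetal globin gene HBG1 872 and 410. HBE1 and HBZ were not analysed here. The 10 highest values included 7 ribosomal protein symbols in CTR and 9 in P30, led by RPS27 with 8016 and 7291 FPKM. The 14 reference genes measured had a median change of 0.05, with GAPDH at 0.05 and TBP, the TATA-binding protein, at 0.04.

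Most genes lay close to the diagonal. The median change was 0.02, the spread across genes, as the median absolute deviation scaled to that of a normal distribution, was 0.20, and 83.2% of the genes differed by less than 1.25-fold. At least 2-fold higher in P30 were 116 genes, or 0.944% of all, and 64 genes, or 0.521%, were at least 2-fold lower, together 1.47%. This balance depended on the scale: with a pseudocount of 0.1 in place of 1 there were 190 higher and 169 lower genes, and at a 1.5-fold limit 323 and 310. On the main scale, a difference of 4-fold or more was reached by 23 higher and 2 lower genes, and one of 8-fold or more by 6 higher and 0 lower genes. Of the 116 higher genes, 46 exceeded 1 FPKM in P30 alone, and of the 64 lower genes, 12 exceeded it in CTR alone. Over 10 FPKM in both groups were 22 of the higher and 16 of the lower genes.

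**Figure D1:**
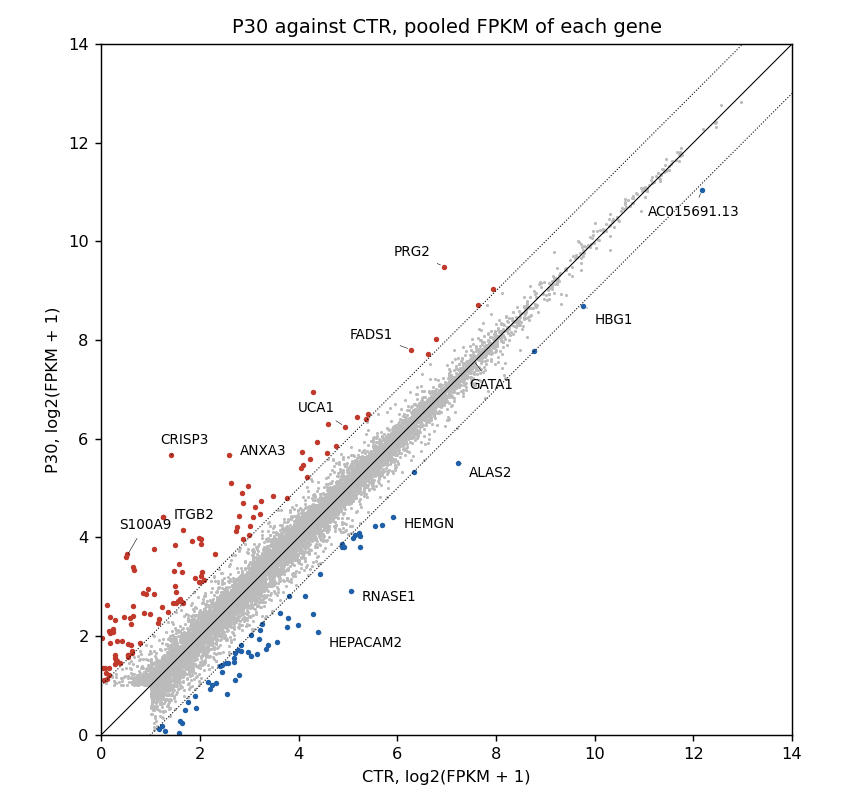
Pooled level of each of the 12285 genes in CTR (horizontal axis) and P30 (vertical axis), both as log2(FPKM + 1). The solid line marks equality and the dotted lines a 2-fold difference; 116 genes (red) lie on or above the upper line and 64 (blue) on or below the lower, while GATA1 sits near equality.

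The share of genes past 2-fold depended on the level. Where the higher of the values was 2 to 5 FPKM, 28 of 1720 genes were 2-fold higher and 16 were 2-fold lower, together 2.56%. At 1 to 2 FPKM the share was 1.27% of 1256 genes, on a scale that shrinks such low genes most. Over 100 FPKM, 7 of 1088 genes were 2-fold higher and 4 were 2-fold lower, together 1.01%. The spread narrowed from 0.26 in the class of 1 to 2 FPKM to 0.15 over 100 FPKM. Just outside the minimum of 1 FPKM were BIK (1.00 in CTR and 0.685 in P30) and RP3-399L15.3 (0.273 and 1.00), and just inside RP11-190C22.8 (1.00 and 0.810) and AC096772.6 (1.00 and 0.987).

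**Figure D2:**
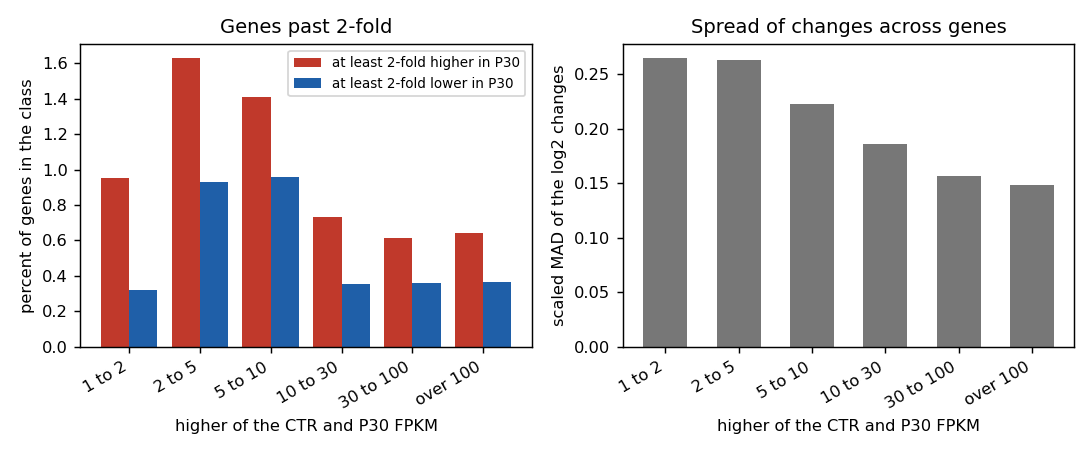
Left, percent of genes at least 2-fold higher (red) or lower (blue) in P30, by class of the higher of the CTR and P30 FPKM (horizontal axis). Right, spread of the log2 changes in the same classes as the scaled median absolute deviation, which declined from 0.26 to 0.15.

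The gene furthest above control was CRISP3, a secreted protein of neutrophil granules, on chromosome 6 (GRCh37, 49695089 to 49712150, minus strand). It had 1.67 and 49.7 FPKM in CTR and P30, a change of 4.25, and 97.6 in CEBPA. ITGB2, the β2 chain shared by the leukocyte integrins (chromosome 21, 46305868 to 46351904, minus strand), had 1.39, 20.3 and 39.9 FPKM in CTR, P30 and CEBPA. The gene furthest below control was HEPACAM2, an adhesion molecule of the immunoglobulin family (chromosome 7, 92817847 to 92855782, minus strand), with 20.03, 3.22 and 1.87 FPKM in CTR, P30 and CEBPA. The long non-coding RNA UCA1 (chromosome 19, 15939016 to 15947138, plus strand) had 29.6 and 74.9 FPKM in CTR and P30, a change of 1.31, against 13.5 in CEBPA. Among these 4 genes UCA1 was the one that stood on opposite sides of CTR in P30 and in CEBPA.

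C/EBP proteins bind palindromes related to the core TTNNGNAA, and the promoters of genes far from control are shown for the matches to this core that they hold. Promoter sequences are those of RefSeq on GRCh38.p14, from 250 bases before to 50 after an annotated start, and both strands were searched (the reverse complement reads TTNCNNAA). Capitals mark a match. The CRISP3 promoter (chr6:49744339-49744638, minus strand) held 5 matches, of which those that begin 69 and 54 bases before the start also fit the stricter core TTGCNNAA, whose matches are all matches of the first core. The promoter at the more downstream HEPACAM2 start (chr7:93219522-93219821, minus strand) held 1, which begins 100 bases before the start and also fits the stricter core, and the one at its other start (chr7:93232149-93232448, minus strand) held 0. Chosen after their values were seen, the promoters of S100A9 (chr1:153357604-153357903, plus strand) and of ALAS2 (chrX:55030928-55031227, minus strand), which were far above and far below control, held 2 and 0. Promoters for UCA1 and ITGB2 were not analysed here.
CRISP3: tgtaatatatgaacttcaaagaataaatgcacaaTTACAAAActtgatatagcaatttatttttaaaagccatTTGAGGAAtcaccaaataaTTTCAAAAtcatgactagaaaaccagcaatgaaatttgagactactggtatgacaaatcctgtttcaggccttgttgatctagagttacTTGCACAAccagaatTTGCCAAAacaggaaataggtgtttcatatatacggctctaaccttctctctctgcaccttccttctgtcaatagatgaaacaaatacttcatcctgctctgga
HEPACAM2: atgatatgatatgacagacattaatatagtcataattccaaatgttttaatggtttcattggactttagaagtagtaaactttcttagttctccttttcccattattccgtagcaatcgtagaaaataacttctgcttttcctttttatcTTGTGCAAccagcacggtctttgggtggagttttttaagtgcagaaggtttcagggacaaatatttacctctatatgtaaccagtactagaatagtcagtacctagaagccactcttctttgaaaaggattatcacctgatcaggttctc
S100A9: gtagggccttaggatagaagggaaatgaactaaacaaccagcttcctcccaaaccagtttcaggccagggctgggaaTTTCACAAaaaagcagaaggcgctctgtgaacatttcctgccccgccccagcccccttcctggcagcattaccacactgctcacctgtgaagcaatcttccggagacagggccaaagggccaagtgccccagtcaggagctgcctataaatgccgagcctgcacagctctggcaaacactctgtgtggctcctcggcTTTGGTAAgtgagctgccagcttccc
ALAS2: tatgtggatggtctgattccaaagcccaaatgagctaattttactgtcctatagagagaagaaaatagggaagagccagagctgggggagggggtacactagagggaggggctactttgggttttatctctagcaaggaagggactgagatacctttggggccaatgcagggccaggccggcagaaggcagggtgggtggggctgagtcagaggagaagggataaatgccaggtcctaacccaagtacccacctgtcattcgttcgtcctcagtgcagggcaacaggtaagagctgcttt

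Among the 20 genes furthest above control, 11 had a promoter in the table, and 10 of their 14 promoters (71.4%) held the core. Among the 20 furthest below control, 15 genes had 23 promoters, of which 11 (47.8%) held it. The core was present in 56.2% of 121 promoters of the 2-fold higher genes, in 37.7% of 53 promoters of the 2-fold lower genes, in 26.9% of the promoters of all genes compared and in 36.8% of all 35116 promoters of this length. The stricter core was in 28.6%, 17.4%, 16.5%, 7.55%, 7.40% and 10.5% of these sets in the same order. Base composition followed the order of the shares of the core TTNNGNAA, and that of the stricter core only in part. The median GC content was 49.3% in the first set, 55.7% in the second, 53.3% and 57.7% in the 2-fold sets, 65% for all genes compared and 58.7% over all promoters. The part of base composition in the shares was not tested, and starts of 1 gene can overlap, so the promoters are not independent. A match to so short a core is a string of letters, not a shown binding site.

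The 20 genes furthest above control ranged in change from 2.04 to 4.25. After CRISP3, GUSBP2 and ITGB2 came GPR97, an adhesion receptor of granulocytes, with 0.439 and 11.6 FPKM in CTR and P30, and S100A9 with 0.416 and 11.1. ANXA3, annexin A3 of neutrophil granules, had 4.98 and 49.7 FPKM. The adaptor FYB, which links T cell and platelet receptors to integrins, had 1.08 and 12.6 FPKM, and PTPN22, a tyrosine phosphatase of lymphoid and myeloid cells, 0.587 and 9.19. In CEBPA these 4 stood at 54.3 (GPR97), 74.3 (ANXA3), 12.8 (FYB) and 35.7 FPKM (PTPN22), all above CTR. PRG2, the eosinophil major basic protein, was the most abundant of the 20 in CTR and in P30, with 122, 717 and 379 FPKM in CTR, P30 and CEBPA. Also among them were MARC2, a mitochondrial amidoxime reductase (0.0855 and 5.15 FPKM), NNMT, nicotinamide N-methyltransferase (2.17 and 16.8), and GBP2, a guanylate-binding protein (1.82 and 13.3). TCN1, the vitamin B12 carrier of neutrophil granules, had 0.795 and 6.37 FPKM.

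For some of these 20 genes P30 was high while CEBPA lay near CTR or below it. NNMT had 2.41 FPKM in CEBPA, against 2.17 in CTR and 16.8 in P30. ITGAM, the integrin chain CD11b, had 2.59, 14.3 and 2.43 FPKM in CTR, P30 and CEBPA. The others were transcripts whose levels are uncertain. ENPP7P8 is a pseudogene (5.20, 33.5 and 3.81 FPKM in CTR, P30 and CEBPA), and Z95704.4 had 6.85, 32.1 and 3.94 FPKM. Z95704.1, annotated as a microRNA gene inside ZNF595, is uncertain as well. It had 18.6, 122 and 29.0 FPKM, with CEBPA above CTR and far under P30. GUSBP2, a pseudogene of GUSB, had 1.36, 20.2 and 7.55 FPKM in CTR, P30 and CEBPA, while GUSB itself had 85.4, 81.2 and 60.9. Reads of pseudogenes can be shared with near-identical copies.

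The 20 genes furthest below control ranged in change from -1.39 to -2.32. RNASE1, a secreted pancreatic-type ribonuclease, had 32.4, 6.58 and 4.94 FPKM in CTR, P30 and CEBPA. SLC30A10, a manganese exporter, had 18.5, 4.43 and 4.80 FPKM, and FBLN2, the matrix protein fibulin 2, 14.9, 3.69 and 0.679. TF, transferrin, had 9.15, 2.35 and 3.29 FPKM, and the organic anion transporter SLCO2B1 had 5.53, 1.17 and 2.22. MYO1A, an unconventional myosin, was among the more abundant, with 50.7, 18.1 and 7.57 FPKM. MGLL, monoglyceride lipase, had the smallest ratio of the 20, with 1.98 and 0.0269 FPKM in CTR and P30, and stood at 0.279 in CEBPA. In these genes P30 and CEBPA both lay below CTR.

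Other genes of the 20 were low in P30 while CEBPA was close to CTR or above it. PALMD, palmdelphin, had 4.84, 0.775 and 7.49 FPKM in CTR, P30 and CEBPA. WASF1, an activator of actin branching, had 12.6, 3.55 and 11.2 FPKM, and NTS, the neuropeptide neurotensin, 9.36, 2.54 and 8.65. RMRP, the RNA of the mitochondrial RNA processing ribonuclease, had 10.8, 2.69 and 11.7 FPKM. How far the mRNA library kit captured RMRP in each sample was not tested.

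**Figure D3:**
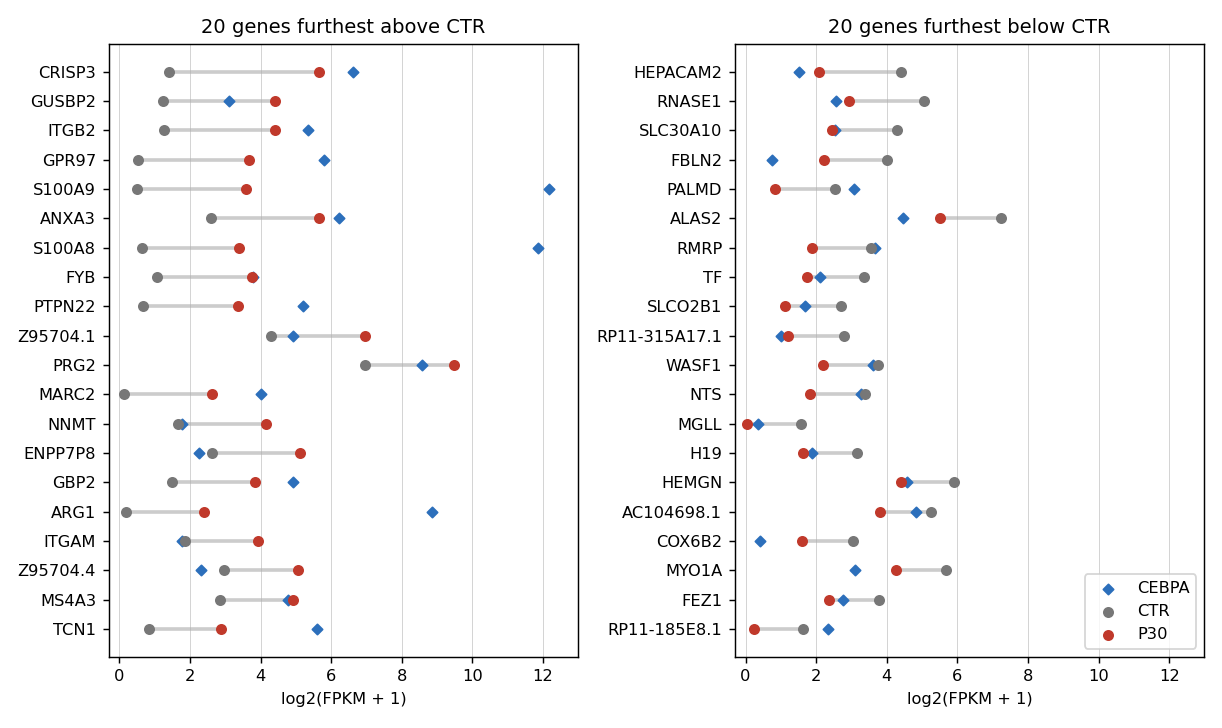
Levels of the 20 genes furthest above (left) and below (right) control, as log2(FPKM + 1) on the horizontal axis, in CTR (grey circles), P30 (red circles) and CEBPA (blue diamonds). A bar joins CTR and P30; S100A9, S100A8 and ARG1 had far higher values in CEBPA than in P30, while NNMT and ITGAM stood near CTR in CEBPA.

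Gene lists of the lineages and pathways of K562 and of granulocytes were then described by their counts and median changes, to be read against 0.944% of all genes 2-fold higher, 0.521% 2-fold lower and a median of 0.02. The lists held 309 of all 12285 genes, among them 36 of the 116 higher genes and 10 of the 64 lower ones. The lists were chosen with earlier results of these data known. A gene over 1 FPKM in P30 alone entered the comparison through the group where it is high, so such genes are counted beside each list that holds a 2-fold higher one, and the counts and medians are descriptions only. In bulk RNA, fewer cells of a type and less RNA per cell cannot be told apart.

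**Figure D4:**
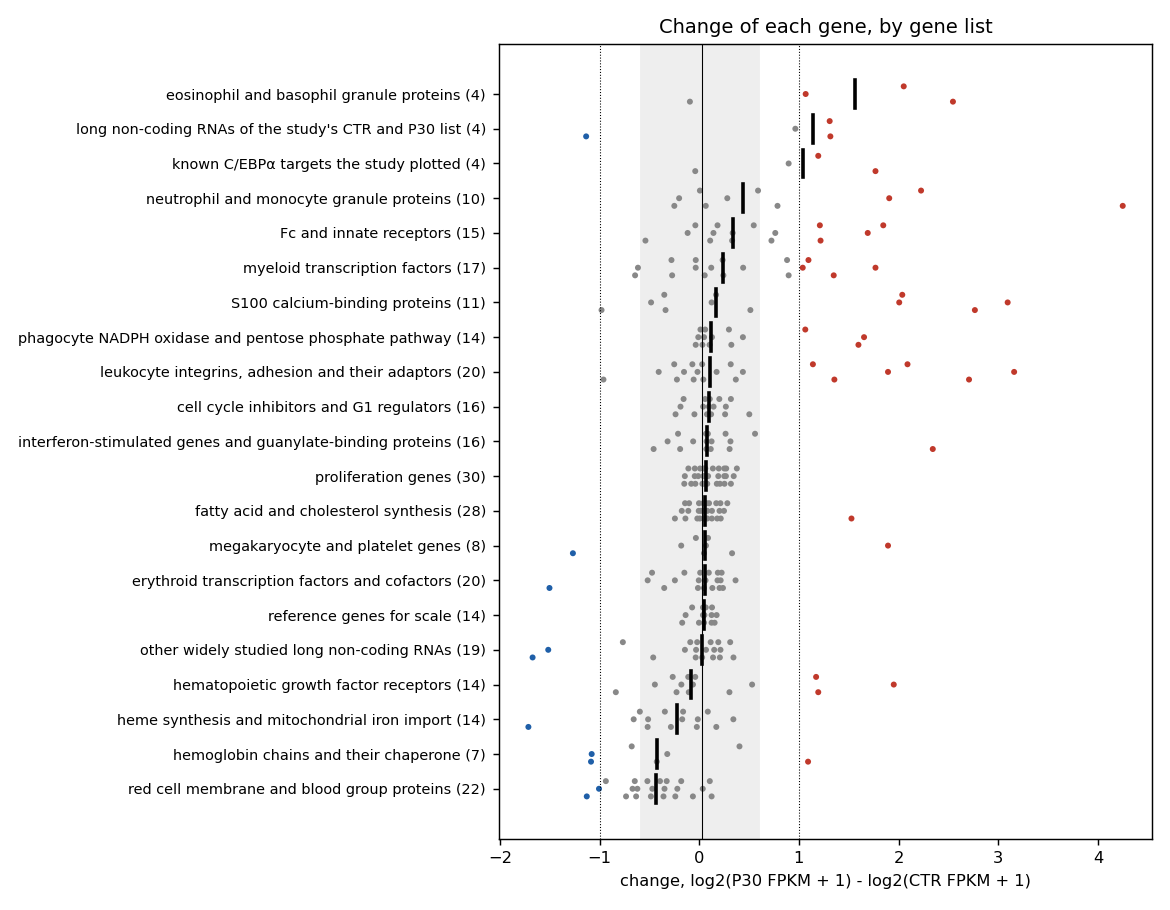
Change of each gene in P30 against CTR, on the log2(FPKM + 1) scale, by gene list, with the number of genes in parentheses. Dots are genes (red and blue past 2-fold, marked by dotted lines), black bars the medians of the lists, the grey band the central 95% of all genes (-0.59 to 0.60) and the thin line their median; medians run from -0.43 for red cell membrane proteins to 1.56 for eosinophil and basophil granule proteins.

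Red cell genes were taken from their products to their regulators, and all those over the minimum exceeded it in both groups. Of 7 genes measured, the hemoglobin chains and their chaperone AHSP, 2 were 2-fold lower (HBG1 and AHSP) and 1 was 2-fold higher (HBD). Their median change was -0.43. HBG1, the Aγ globin chain of fetal hemoglobin, had 872, 410 and 389 FPKM in CTR, P30 and CEBPA, and AHSP, the chaperone of free α chains, 28.5, 12.95 and 8.13. HBM, a minor α-like chain, had 357 and 223 FPKM in CTR and P30. HBD, the δ chain of adult hemoglobin, was higher, with 6.34 and 14.6 FPKM in CTR and P30. The α genes HBA1 (83.1 and 110 FPKM) and HBA2 (68.3 and 54.5) differed from CTR in opposite directions, but they are nearly identical, so how their reads were split is uncertain. The same holds for HBG1, whose near-identical copy HBG2 was not analysed here, and HBD overlaps other annotated genes of its own strand. HBM does too, among them HBZ, which was not analysed here, so the level of HBM is uncertain as well.

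The 14 genes of heme synthesis and mitochondrial iron import had a median change of -0.23, with 11 of them below 0 and ALAS2 alone past 2-fold. ALAS2, the erythroid enzyme of the first step, had 149, 44.7 and 20.9 FPKM in CTR, P30 and CEBPA. Its housekeeping counterpart ALAS1 had 16.3, 20.9 and 68.0 FPKM in CTR, P30 and CEBPA. Within the pathway, P30 was lower than CTR for the middle and late enzymes UROS (92.9 and 58.5 FPKM), UROD (684 and 479), PPOX (205 and 143) and FECH (84.0 and 65.9), which inserts the iron. ALAD (31.5 and 25.7 FPKM) differed less. In each of the enzymes named here but ALAS1, levels were highest in CTR and lowest in CEBPA.

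**Figure D5:**
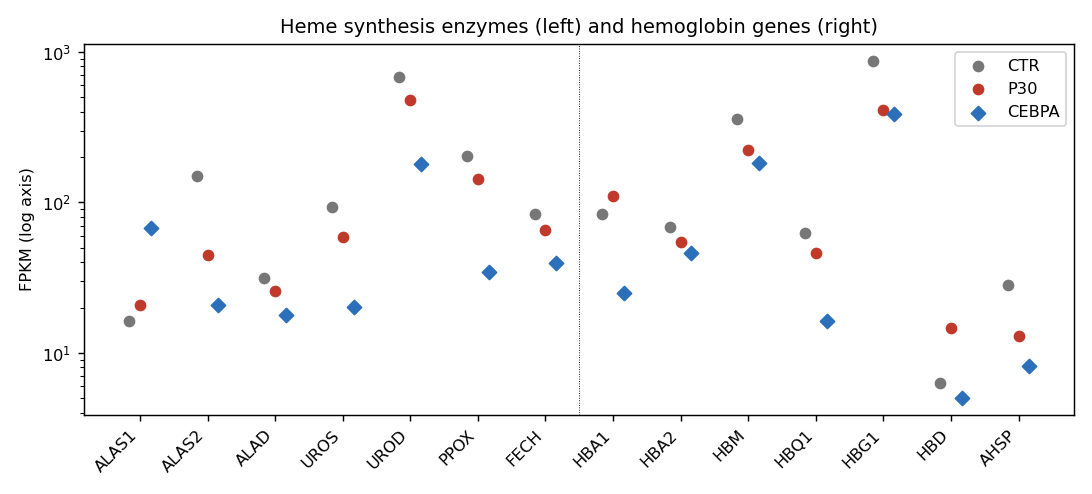
FPKM (log axis) of enzymes of heme synthesis in pathway order, with the hemoglobin genes and AHSP to the right of the dotted line, in CTR (grey circles), P30 (red circles) and CEBPA (blue diamonds). P30 lies below CTR for all enzymes shown except ALAS1, most for ALAS2 (149 against 44.7), and above CTR for HBA1 and HBD.

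Of 22 red cell membrane and blood group genes, 19 had a negative change, 2 were 2-fold lower and 0 were 2-fold higher, and the median was -0.43. RHAG, the Rh-associated glycoprotein, had 437, 217 and 127 FPKM in CTR, P30 and CEBPA. EPB42, which anchors the membrane skeleton, had 5.43 and 1.94 FPKM in CTR and P30. The blood group genes RHCE (88.2 and 52.6 FPKM) and RHD (55.2 and 34.4), which are close copies of each other, and KEL (128 and 82.1) were lower too, by less than 2-fold. TFRC, given above, was an exception, as was the adducin chain ADD1 (79.9 and 86.1).

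The erythroid transcription factors had a median change of 0.06 over 20 genes, with 12 above 0 and 1 past 2-fold. That gene was HEMGN, hemogen, a nuclear protein of erythroid cells, with 59.0, 20.2 and 23.0 FPKM in CTR, P30 and CEBPA. Lower by less than 2-fold were GFI1B (63.7 and 44.2 FPKM), KLF1, an activator of adult globin and membrane genes (160 and 115), and NFE2 (167 and 131). LMO2, LDB1 and LYL1, partners of TAL1, had changes of 0.01, 0.10 and -0.01.

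Among 17 myeloid transcription factors, 4 were 2-fold higher and 0 were 2-fold lower, with a median of 0.23; 1 of the 4, CEBPE, was over 1 FPKM in P30 alone. CEBPE, the C/EBP factor of late granulocyte maturation, had 0.560, 4.31 and 11.2 FPKM in CTR, P30 and CEBPA. SPI1, which encodes PU.1, had 41.3, 89.4 and 78.2 FPKM, and RUNX1, a core binding factor of blood progenitors, 17.9, 47.1 and 33.3. MYB, a factor of proliferating progenitors, had 40.4 and 83.9 FPKM in CTR and P30, whereas CEBPA was at 28.9. SPI1 and RUNX1 were thus above CTR in both isoform lines and MYB in P30 alone. ID1, an inhibitor of helix-loop-helix factors, had 48.0, 89.2 and 27.7 FPKM, with a change of 0.88 in P30. Below CTR were the early response factor EGR1 (34.6 and 21.8 FPKM) and CEBPB (29.1 and 18.7), while CEBPD (3.68 and 4.54) and CEBPG (19.7 and 16.1) differed little.

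Of the 27 neutrophil and monocyte granule proteins listed, 10 were measured above the minimum, 3 were 2-fold higher and 0 were 2-fold lower, with a median of 0.44. The median was 0.28 with no minimum and 0.17 with one of 5 FPKM. Of the 3, 2 were over 1 FPKM in P30 alone. These were ARG1, the arginase of granules (0.127, 4.27 and 460 FPKM in CTR, P30 and CEBPA), and the acid glycoprotein ORM1 (0.178, 3.41 and 891). Lysozyme, LYZ, had 45.5 and 47.6 FPKM in CTR and P30 and 1781 in CEBPA, and lipocalin 2, LCN2, 3.94, 3.16 and 264. The azurophil granule proteins PRSS57 (6.84, 12.5 and 1.67 FPKM) and AZU1 (2.54, 4.32 and 2.202) were above CTR in P30 only, by less than 2-fold. MPO, ELANE, CTSG and LTF were not analysed here.

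Of 14 eosinophil and basophil genes listed, only 4 were over the minimum, of which 3 were 2-fold higher, and the median was 1.56. Of the 3, PRG3 was over 1 FPKM in P30 alone. Besides PRG2, they were MS4A3, a membrane protein of myeloid progenitors and basophils (6.22, 28.9 and 26.4 FPKM), and PRG3, a homolog of PRG2 (0.0363, 1.17 and 9.29). PRG2 lies 5.63 kb from PRG3 on chromosome 11. The crystal protein CLC had 1.35, 1.20 and 53.5 FPKM in CTR, P30 and CEBPA. Markers of mature blood granulocytes were set beside these groups. Of 12 listed, 5 were over the minimum and 2 of these were 2-fold higher (S100A12 and AQP9, both over 1 FPKM in P30 alone). The summed level of the 5 was 40.5, 48.6 and 2086 FPKM in CTR, P30 and CEBPA. S100A12 and AQP9 had 0.221 and 0.0812 FPKM in CTR and 4.01 and 1.20 in P30. With CSF3R low as well, most of the CTR and P30 sums came from other genes of the list. CSF3R, the G-CSF receptor, had 2.91, 2.80 and 59.0 FPKM, and the receptors CXCR1, CXCR2, FCGR3B and FPR1 were not analysed here. The part of such cells in the differences was not tested.

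The S100 list held S100 calcium-binding proteins and S100PBP, a binding partner of S100P that is not one of them. Of its 11 genes over the minimum, 4 were 2-fold higher and 0 were 2-fold lower, with a median of 0.17, the change of S100PBP. All 4 were over 1 FPKM in P30 alone, and of the 7 members over it in both groups 0 were 2-fold higher. S100A8 and S100A9, the chains of calprotectin, had 0.551 and 0.416 FPKM in CTR and 9.54 and 11.1 in P30, against 3731 and 4623 in CEBPA. S100A12, which lies between them on chromosome 1, had 0.221, 4.01 and 1609 FPKM, and S100P 0.936, 6.78 and 135. These 4 were thus higher in P30 than in CTR, at levels far under those of CEBPA. S100A4, linked to cell motility, was lower, with 54.3 and 27.1 FPKM in CTR and P30, a change of -0.98.

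Among 20 leukocyte integrin and adhesion genes, 6 were 2-fold higher and 0 were 2-fold lower, with a median of 0.11; 1 of the 6, PLEK, was over 1 FPKM in P30 alone. ITGB2 and ITGAM together form the complement receptor CR3. The partner chain of LFA-1, ITGAL, stayed under the minimum, with 0.485, 0.318 and 2.26 FPKM in CTR, P30 and CEBPA. Others were PLEK, pleckstrin (0.123 and 3.17 FPKM in CTR and P30), SELPLG, the P-selectin ligand (3.92 and 11.6), and PTPRC, the leukocyte phosphatase CD45 (22.8 and 51.4). The β1 chain ITGB1 (103 and 98.8 FPKM), talin TLN1 (80.3 and 67.3) and kindlin FERMT3 (65.8 and 62.7) differed little. ICAM2, a ligand of LFA-1, had 91.5, 46.5 and 12.6 FPKM in CTR, P30 and CEBPA.

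Of 14 hematopoietic growth factor receptors, 3 were 2-fold higher and 0 were 2-fold lower, while 9 had a negative change and the median was -0.08. Of the 3, CSF2RB and CSF1R were over 1 FPKM in P30 alone. CSF2RB, the common β chain of the receptors for GM-CSF, IL-3 and IL-5, had 0.872, 6.24 and 1.57 FPKM in CTR, P30 and CEBPA. CSF1R, the M-CSF receptor, had 0.111, 1.54 and 1.79 FPKM, and IL4R 1.26, 4.10 and 16.9. The erythropoietin receptor EPOR had 42.2, 30.8 and 12.9 FPKM, and IL2RG, the common γ chain, 19.5, 10.5 and 6.41. Of 4 known C/EBPα targets of the study over the minimum, CEBPE and CSF1R were 2-fold higher, GFI1 was higher by less (0.524 and 1.84 FPKM), and CSF3R was not higher. The 3 higher ones were over 1 FPKM in P30 alone, so their count and the median of 1.05 rest on genes that entered through that group.

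Of 15 Fc and innate receptors, 4 were 2-fold higher and 0 were 2-fold lower, with a median of 0.34. Of the 4, 3 (MS4A6A, CD300A and FCRLA) were over 1 FPKM in P30 alone. FCGR2A, the low-affinity IgG receptor CD32A, had 23.2, 77.2 and 58.8 FPKM in CTR, P30 and CEBPA. It overlaps other annotated genes of its own strand, so how its reads were split is uncertain. MS4A6A (0.186, 3.26 and 0.816 FPKM) and the inhibitory receptor CD300A (0.520, 2.52 and 0.512) were highest in P30, and FCRLA, an Fc receptor-like protein, in CEBPA (0.225, 1.85 and 65.8). CD33, a sialic acid-binding receptor of myeloid cells, had 30.8, 38.9 and 14.8 FPKM.

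Among 14 genes of the phagocyte NADPH oxidase and the pentose phosphate pathway, which supplies its NADPH, 3 were 2-fold higher and 0 were 2-fold lower, with a median of 0.12; 1 of the 3 was over 1 FPKM in P30 alone. The cytosolic oxidase subunit NCF4 (2.11, 8.78 and 1.499 FPKM in CTR, P30 and CEBPA) was higher, while CYBB, the catalytic subunit, had 1.79, 1.90 and 152 FPKM. PGD, the phosphogluconate dehydrogenase of the pathway, had 198, 416 and 316 FPKM in CTR, P30 and CEBPA. TKT, transketolase, was higher by less than 2-fold, with 143 and 194 FPKM in CTR and P30.

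Further lists were those of lipid synthesis, interferon response and megakaryocytes. Of 28 genes of fatty acid and cholesterol synthesis, with a median of 0.06, FADS1 alone was past 2-fold. FADS1, the Δ5 desaturase of polyunsaturated fatty acids (chromosome 11, 61567099 to 61596790, minus strand), had 76.6, 222.5 and 66.0 FPKM in CTR, P30 and CEBPA. Its neighbors FADS2 (123 and 112 FPKM) and FADS3 (41.2 and 45.03) were within 2-fold, and FADS1 lies within the span of FADS2 on the opposite strand. Of 16 interferon-stimulated genes, with a median of 0.08, GBP2 alone was 2-fold higher, and BST2 (186 and 135 FPKM) was not. Of 8 megakaryocyte genes, with a median of 0.06, PLEK was 2-fold higher, over 1 FPKM in P30 alone, and TUBB1, the platelet β tubulin, 2-fold lower (8.20 and 2.82 FPKM), while ITGA2B, the platelet integrin αIIb, had 12.6 and 13.2.

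Growth genes stayed within 2-fold. The 30 proliferation genes ranged from -0.15 (AURKB) to 0.38 (CDT1, a replication licensing factor), with 22 above 0 and a median of 0.07. The cell cycle inhibitors and G1 regulators had a median of 0.10 over 16 genes. CDKN1B, which encodes p27, had 30.4 and 32.8 FPKM in CTR and P30, and MYC 81.8 and 102. CCND3, cyclin D3, showed the largest difference of the list, with 183 and 259 FPKM.

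Among long non-coding RNAs, the study's own list for CTR and P30 was chosen on these samples, so its directions are not independent evidence. Of its 6 transcripts 4 were over the minimum, 2 of them 2-fold higher (UCA1 and AE000661.37) and 1 2-fold lower (AC015691.13), with a median of 1.14. That median was 2.09 with a pseudocount of 0.1, and AE000661.37 was over 1 FPKM in P30 alone. With a minimum of 5 FPKM only UCA1 and AC015691.13 remained, with changes of 1.31 and -1.13. The median of 0.087 at that minimum is their midpoint and describes neither. AC015691.13 was one of the 10 highest values in CTR, at 4608 FPKM against 2099 in P30. Of 19 other widely studied long non-coding RNAs, 0 were 2-fold higher and 2 were 2-fold lower, with a median of 0.03. These were RMRP and the imprinted H19 (7.87, 2.10 and 2.66 FPKM in CTR, P30 and CEBPA). NEAT1, the scaffold of paraspeckles, had 200.2 and 145 FPKM in CTR and P30, and MALAT1 73.3 and 71.5. By annotated class, 5 of the 329 matched genes labelled lncRNA were past 2-fold (1.52%), against 140 of 10129 protein coding genes (1.38%). Genes with older labels were not counted there, such as RP11-277L2.4 (lincRNA, change 1.58), nor were the 1508 genes without a match. In the class of other labels, 6.38% of 94 genes were past 2-fold.

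Other cell types were looked for by their markers. Of 12 T and B lymphocyte markers 3 were over the minimum, with a summed level of 14.6 and 14.4 FPKM in CTR and P30 and 0 past 2-fold, and CD4, CD8A and MS4A1 were not analysed here. Of 13 markers of fibroblasts, endothelium and epithelium 4 were over the minimum, with sums of 94.2 and 89.0 FPKM and 0 past 2-fold. The changes of these 4 ran from -0.54 (KRT19, a keratin) to 0.49 (EPCAM, an epithelial adhesion molecule), with a median of 0.30, and the part of other cells in the differences was not tested.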

How the data were processed

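RNA-seq of 2 samples each of CTR, P30 and CEBPA K562 cells was used. Per the labels and the study's methods, total RNA was depleted of ribosomal RNA for the first run, libraries were made with a stranded TruSeq mRNA kit, and sequencing took 2 runs on different instruments; which sample came from which run is not given in the sources used here. Reads were aligned to hg19 with TopHat and assembled on a Gencode annotation, and the submitters' processing notes name CASAVA 1.4, TopHat2 2.0 and Cuffdiff. The authors deposited FPKM values estimated with Cuffdiff, 1 per gene and group with replicates pooled, in 3 tables. The library normalization and the rule that selected rows are not given in the sources used here. The study's text gives a range of read pairs per sample, but without counts the depth behind each gene is unknown, and no SD, interval or p-value could be computed from pooled values. All value columns of the tables were used, so the number set aside was 0.

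Changes were differences of log2(FPKM + 1) among rows over 1 FPKM in at least 1 group and 0 in neither. Symbols beginning with MIR, SNOR, snoU13, U6 or RNU were set apart, among them 9 host genes of microRNAs. CEBPA values were joined by symbol and shared CTR or P30 value, and the comparisons share samples, so its values are only set side by side. A total of 24 rows share 11 repeated symbols. A row at exactly 0 may be a failed estimate: 37 rows were at 0 in CTR and 29 in P30, and EEF1A1, a gene that every cell uses, was listed at 0 in both.

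The genes named are the 20 furthest above and below control, the 10 highest values of each group, the markers CRISP3, ITGB2, HEPACAM2 and UCA1, genes the study names, those that define each of 24 gene lists or differ most in it, and the 5 most extreme small RNAs and genes at 0; others are marked as chosen once their values were known. The genes compared and the lists were chosen with earlier results of these data known. Older symbols were matched to current ones, and 10777 genes matched 1 gene of a later Gencode annotation on GRCh37, the authors' build, while 1508 did not. Promoters were those of RefSeq on GRCh38.p14, with 300 bases each. Several listed genes were not analysed here. Alternatives were a pseudocount of 0.1, centred changes, summed rows of a symbol, no filter, a minimum of 5 FPKM, rows at 0 in 1 group kept, folds of 1.5 and 3, and a stricter motif. Scripts were tested on simulated data and run with Python 3.11.15, numpy 2.4.6, pandas 2.3.3 and matplotlib 3.10.9.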

Additional observations from a re-analysis of the deposited data

How the results depend on the processing

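No paired analysis was possible because each group has a single pooled column; leaving out a replicate and the replicate block therefore could not be run. Log2 values that shifted by over 0.20, the spread across genes, and counts that shifted by over 1.5 times were taken as moved. The promoter motif share, which is neither, was counted as moved with no limit applied. Of 196 recomputed values of 33 results, 175 stayed within these limits and 21 moved. The sign differed in 2 of them, the medians of the lymphocyte markers (-0.043, and 0.032 with a minimum of 5 FPKM) and of the fibroblast, endothelial and epithelial markers. Centring, summed rows and rows at 0 kept moved 0 of them, and the change of UCA1 lay between 1.29 and 1.33.

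With a pseudocount of 0.1 FPKM, 190 genes were 2-fold higher and 169 lower, the changes of CRISP3, ITGB2 and HEPACAM2 were 4.82, 3.78 and -2.60, and medians were 2.38 for eosinophil and basophil proteins, 2.19 for known targets, 2.09 for the study's long non-coding RNAs and 1.89 for mature granulocyte markers. With a minimum of 5 FPKM, 76 genes were 2-fold higher, and medians were 0.17 for neutrophil granule proteins, 2.30 for eosinophil and basophil proteins, 0.087 for the study's long non-coding RNAs, -0.024 for fibroblast, endothelial and epithelial markers (0.30 at 1 FPKM) and 0.089 for mature granulocyte markers (0.75 at 1 FPKM). At that minimum the long non-coding RNA median was the midpoint of UCA1 and AC015691.13, which differed in opposite directions. The granulocyte markers S100A12, AQP9 and CSF3R were under it. Without a filter the eosinophil and basophil median was 1.07. At a fold of 1.5 there were 323 genes higher and 310 lower, and at 3 there were 46 and 9. The stricter motif was in 28.6% of promoters of the top 20 genes, against 71.4% for the wider core. The causes were not tested. Depth per gene and separate replicate values were not analysed here, which limits every value.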

Other observations

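Several genes outside the lists were past 2-fold and were chosen after their values were seen. PYCARD, the inflammasome adaptor ASC, had 5.68, 17.6 and 2.65 FPKM in CTR, P30 and CEBPA, and ADAM8, a membrane protease of leukocytes, 10.1, 27.6 and 5.66. ALOX5, the 5-lipoxygenase of leukotriene synthesis, had 16.9, 36.4 and 11.1 FPKM. The long non-coding RNA CCDC26 had 5.89, 20.5 and 3.87 FPKM. In these 4 genes, as in UCA1, P30 was above CTR and CEBPA below it. Abundant genes with the same order were the potassium channel KCNH2 (96.9, 209.9 and 67.3 FPKM) and ACSM3, a medium-chain acyl-CoA synthetase (109.6, 259.5 and 57.5). On the lower side were the aquaporins AQP3 (36.5, 16.1 and 9.39 FPKM) and AQP7 (1.34, 0.137 and 0.0371), which lie 38.5 kb apart, the folate receptor FOLR1 (16.5, 6.05 and 2.68) and SPINK4, a secreted protease inhibitor (46.0, 17.7 and 3.28). CTH, the cystathionine lyase of cysteine synthesis (28.4 and 13.5 FPKM in CTR and P30), CHAC1, a glutathione-degrading enzyme (6.90 and 2.19), and ASS1, of arginine synthesis (3.99 and 1.08), were lower in P30 as well, and CTH stood at 42.4 and CHAC1 at 6.29 in CEBPA.

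Some genes past 2-fold were neighbors. Of 156 with a position, 23 lay within 100 kb of another, in 15 pairs, of which 12 had the same direction and 3 opposite ones. Same-direction pairs included PYCARD and ITGAM (56.5 kb apart), NCF4 and CSF2RB (35.6 kb), and FCGR2A and HSPA6 (0.527 kb). The opposite pairs were HBD and HBG1 (4.61 kb), RHAG and CRISP3 (90.5 kb), and SLC16A3 and TEX19 (98.1 kb). Many same-direction pairs came from S100A8, S100A9 and S100A12 and from FCGR2A, HSPA6, HSPA7 and FCRLA on chromosome 1, so pairs are not independent. With 103 higher and 53 lower genes among those matched to an annotated gene, unrelated pairs would often share a direction too. The share of such pairs among all genes was not computed, so these counts are descriptions only.

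Of the 92 rows over 1 FPKM set apart by symbol, 83 with small RNA symbols and 9 host genes of microRNAs, 1 was 2-fold higher and 3 were 2-fold lower, with a median change of 0.03. Together these were 4.35% of the rows, against 1.47% of the genes compared. SNORA81 had 1.74 and 5.12 FPKM in CTR and P30. The lower ones were RNU2-17P (5.15 and 0.950 FPKM), SNORA45 (8.04 and 2.59) and SNORD3A (4.11 and 1.12). Of the 54 rows over 10 FPKM in CTR, 0 were past 2-fold. The libraries were made with an mRNA kit. Whether reads at these symbols came from small RNAs or from longer transcripts was not tested, nor was the capture of RN7SK. RN7SK, the small nuclear RNA that holds back transcription elongation, was among the genes compared and had 36.7, 15.3 and 78.0 FPKM in CTR, P30 and CEBPA. The genes listed at 0 in P30 with the highest values in CTR were MIR3661 (96.5 FPKM), a row of snoU13 (31.2) and SNORD46 (19.9), and those listed at 0 in CTR with the highest in P30 were another row of snoU13 (43.2 FPKM) and U6 (22.7). Outside small RNA symbols, RNVU1-19, at 7.85 FPKM in CTR, was listed at 0 in P30, and AC073415.2, listed at 0 in CTR, had 2.52 FPKM in P30.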
